A study of Mus musculus with 4 samples.

Results

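The genotype by infarct interaction of DNA modification in the mouse left ventricle was measured here as a difference of differences. The infarct difference (infarcted minus non-infarcted tissue) of wild-type heart was subtracted from the infarct difference of Neil3-null heart. The quantity compared was log2 of HpaII signal over MspI signal at CCGG sites, centred on the median region of each sample. The regions were all autosomal protein-coding gene bodies and all fixed 10-kb bins with at least 10 CCGG sites listed in every sample. This kept 10025 of 20665 genes and 20344 of the 217277 bins that held any listed site, and the contrast used all 4 samples of the series. An interaction above 0 means that HpaII signal, relative to MspI signal, was higher after infarction in the null heart than the wild-type infarct difference would give, and one below 0 means that it was lower.

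The 4 samples were left ventricular DNA of 8-week-old C57BL/6 mice, taken 3 days after an induced myocardial infarction. In order, they were non-infarcted and infarcted tissue of wild-type heart, then non-infarcted and infarcted tissue of Neil3-/- (null) heart, with 1 sample per group, and values of the 4 samples are given in that order throughout. Whether a sample is 1 heart or a pool, and whether the infarcted and non-infarcted tissue of a genotype came from the same hearts, the labels do not say. The non-infarcted samples are thus tissue of the same time after infarction, not of unoperated or sham-operated animals as far as the labels say.

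NEIL3 is a DNA glycosylase of base excision repair, the pathway that removes oxidized and otherwise damaged bases, and it is expressed mainly in proliferating cells. HpaII and MspI cut the same CCGG motif, but HpaII is blocked when the inner cytosine carries a methyl or hydroxymethyl group while MspI is not. A higher HpaII signal relative to MspI therefore stands for less modified DNA at a site. Myocardial infarction kills cardiomyocytes and brings in leukocytes and dividing fibroblasts, so tissue taken in the first days differs in cell makeup as well as in the state of each cell.

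The contrast has 1 sample in each of its cells and the interaction takes the last degree of freedom, so no p-value is given anywhere. A gene or bin was called at a fixed size of 0.5 on the log2 scale, a 1.41-fold difference between the genotypes' infarct ratios. The standard error (SE) beside a value is over the CCGG sites of the region. It covers the spread between sites and not between animals, libraries or dissections. The 2 genotypes' contrasts share no sample. Cell makeup and the modification state within a cell type cannot be told apart in DNA from whole tissue.

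CCGG sites near gene starts show what was read. The 300-base promoter sequences of 4 genes are printed because, among starts past 0.5 and 2 SE over sites with at least 2 listed CCGG sites in the 300 bases, they had the 2 highest and the 2 lowest interactions over the whole start. They were chosen after their values were seen. Each runs 5′ to 3′ from 250 bases before to 50 bases after the annotated start (RefSeq, GRCm38.p6), with the CCGG sites listed in the data in capitals. The motif CCGG reads the same on both strands and was found in 63.5% of 20085 such promoters. Of the CCGG sites in promoters, 33.6% were listed in at least 1 sample.
Slc6a5 (chr7:49910049-49910348, plus strand): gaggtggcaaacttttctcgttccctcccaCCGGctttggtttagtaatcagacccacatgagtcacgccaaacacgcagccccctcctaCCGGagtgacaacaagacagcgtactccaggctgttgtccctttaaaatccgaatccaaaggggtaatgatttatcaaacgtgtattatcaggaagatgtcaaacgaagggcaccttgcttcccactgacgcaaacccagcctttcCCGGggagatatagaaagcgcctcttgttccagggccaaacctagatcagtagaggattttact
Shmt2 (chr10:127522395-127522694, minus strand): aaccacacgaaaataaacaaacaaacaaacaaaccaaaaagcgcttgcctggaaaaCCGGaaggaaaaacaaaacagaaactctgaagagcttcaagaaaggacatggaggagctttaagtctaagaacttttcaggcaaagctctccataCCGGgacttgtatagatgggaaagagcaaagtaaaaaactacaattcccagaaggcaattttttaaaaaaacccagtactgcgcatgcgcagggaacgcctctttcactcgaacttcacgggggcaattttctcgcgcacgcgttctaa
Pou2f2 (chr7:25132411-25132710, minus strand): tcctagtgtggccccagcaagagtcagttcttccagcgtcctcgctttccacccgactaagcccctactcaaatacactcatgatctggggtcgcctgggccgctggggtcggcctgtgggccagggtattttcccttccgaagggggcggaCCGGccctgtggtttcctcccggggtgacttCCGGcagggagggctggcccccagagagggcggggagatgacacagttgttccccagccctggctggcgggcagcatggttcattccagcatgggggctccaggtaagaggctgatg
Ccar1 (chr10:62792319-62792618, minus strand): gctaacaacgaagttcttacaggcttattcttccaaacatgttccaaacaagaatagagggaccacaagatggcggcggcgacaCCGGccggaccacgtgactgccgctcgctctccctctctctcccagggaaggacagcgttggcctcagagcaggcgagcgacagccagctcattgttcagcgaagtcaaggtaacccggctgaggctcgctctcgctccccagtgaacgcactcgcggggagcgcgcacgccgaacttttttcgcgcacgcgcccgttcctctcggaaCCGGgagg
All 3 CCGG sites of the Slc6a5 promoter and both of the Shmt2 promoter were listed, against 2 of 3 for Pou2f2 and 2 of 4 for Ccar1.

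The Slc6a5 promoter, at the start of the gene for a glycine transporter, shows how a site makes up an interaction. At its site 14 bases before the start, HpaII signal was 115, 112, 115 and 112 in the 4 samples, while MspI signal was 28.3, 21.5, 27.7 and 39.8. The HpaII signal thus hardly differed there, and the interaction of -0.89 at this site lay in the MspI signal. At the site 220 bases before the start, HpaII signal was 88.3, 81.8, 50.9 and 75.5 and MspI signal was 50.4, 18.3, 25.1 and 28.2, an interaction of -0.93. In the Shmt2 promoter, of the gene for a mitochondrial serine hydroxymethyltransferase, the site 99 bases before the start had MspI signals of 66.6, 23.2, 25.1 and 34.8 and an interaction of -1.64. In the Pou2f2 promoter, of the gene for a B-cell transcription factor, the site 98 bases before the start had MspI signals of 7.65, 14.8, 17.0 and 12.2 and an interaction of 1.84. The wild-type non-infarcted sample had the highest MspI value of the 4 at this Shmt2 site and the lowest at this Pou2f2 site.

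Most gene bodies had an interaction close to 0. The interaction had an SD of 0.16 log2 units over 10025 gene bodies, and 88.5% of them lay within 0.25 of 0. The interaction was 0.5 or more in 41 gene bodies (0.409%) and -0.5 or less in 46 (0.459%), with a range from -1.01 to 0.87. Just inside these limits were Tshz3 at 0.51 and Pop1 at -0.51, and just outside were Safb at 0.50 and Tmem209 at -0.50. Above 0 were 5022 gene bodies, a share that the centring on the median fixes near the middle. Without centring, the calls were 29 and 70.

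**Figure D1:**
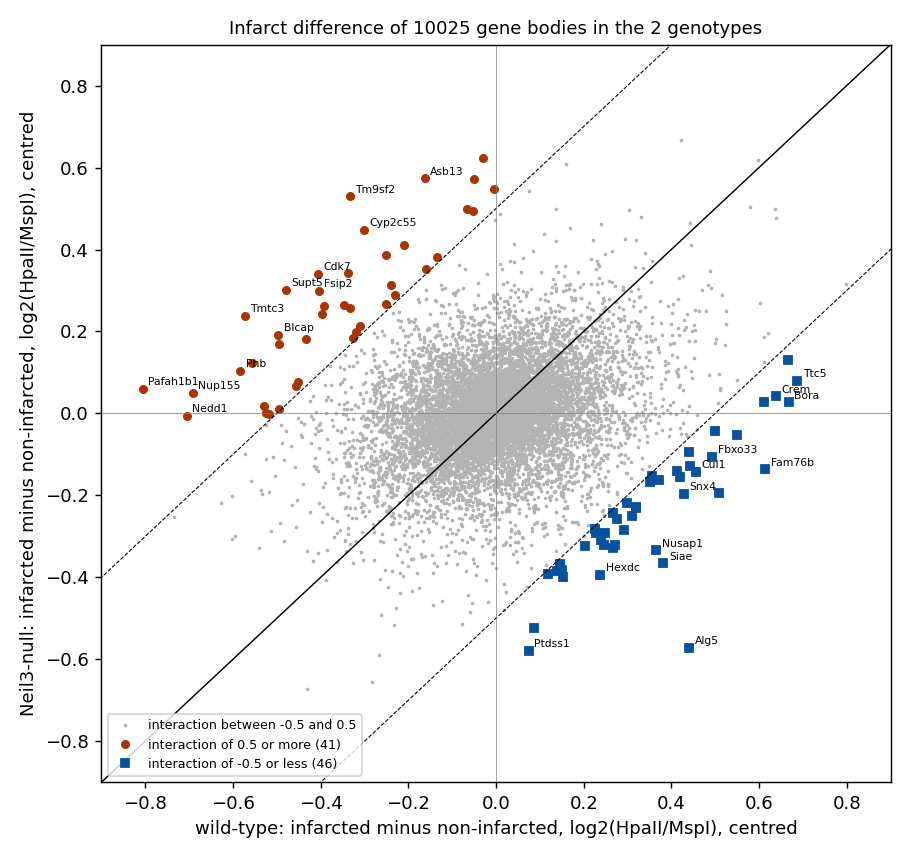
Infarct difference of each gene body in wild-type heart (x axis) and in Neil3-null heart (y axis), both as centred log2(HpaII/MspI). The solid line marks equal differences and the dashed lines an interaction of 0.5 and -0.5; the 41 genes above the upper line are red circles, the 46 below the lower line blue squares, and named genes are labelled.

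The infarct difference itself spread more widely in wild-type than in null heart. Its SD over gene bodies was 0.15 in wild-type and 0.12 in null heart. In wild-type heart it was 0.5 or more in 28 gene bodies (0.279%) and -0.5 or less in 25 (0.249%). In null heart the counts were 11 (0.110%) and 8 (0.0798%). Across genes, the wild-type and null infarct differences had a Pearson correlation of 0.28 (n = 10025 genes, all from the same 4 samples). The genotype differences had an SD of 0.11 in non-infarcted and 0.13 in infarcted tissue.

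Most called genes had infarct differences of opposite sign in the genotypes. This held for 38 of the 41 genes with a positive and for 41 of the 46 with a negative interaction, as the rule favours such genes. Of the 41, 19 had a wild-type infarct difference of at least 0.25 in size with a null difference smaller than that, 11 had the reverse, and 11 had both differences past 0.25 in opposite directions. Of the 46, the same counts were 24, 15 and 7. The sign of the genotype difference was reversed between non-infarcted and infarcted tissue in 39 of the 41 and in 43 of the 46. The plot of both infarct differences shows these genes in the upper left and lower right corners, away from the line of equal differences.

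Neil3 itself is the gene that separates the genotypes, and 10 of its sites were listed in all samples. Its gene body (chr8:53586867-53639065) had HpaII signal at 48.6, 51.4, 92.4 and 79.8% of MspI signal, so both null samples lay above both wild-type samples. The null minus wild-type difference was 0.87 log2 units in non-infarcted tissue, the highest of all gene bodies, and 0.61 in infarcted tissue. Its interaction was -0.26 ± 0.23 (SE over sites) and was not called. Of 20 sites listed anywhere in the annotated gene, 1 was listed in both wild-type and in neither null sample. The labels do not say how the null allele was made, so these sites do not check the deletion. Near it on chromosome 8, and on part of chromosome 1, 34 windows of 1 Mb had at least 5% of their wild-type sites missing from both null samples. The 97 measured genes in these windows had a median interaction of -0.01. Of them, none was called at 0.5 or more and 1 at -0.5 or less, beside 0.409% and 0.459% of all gene bodies.

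The 3 gene bodies with the highest interaction were those of Pafah1b1, Tm9sf2 and Tmtc3. Pafah1b1 (chr11:74673949-74724384), which encodes LIS1, a regulator of the motor protein dynein, had HpaII signal at 172, 102, 140 and 148% of MspI signal. The wild-type infarcted sample was the low one, and the interaction was 0.87 ± 0.28 (SE over 10 sites), with 8 of the sites above 0. These percentages are ratios of the signals of 2 libraries and can exceed 100, so they are relative values and not shares of DNA molecules. Tm9sf2 (chr14:122107082-122159603), a transmembrane protein of endosomes and the Golgi, stood at 64.4, 53.1, 45.6 and 66.7%. Its infarct difference was -0.33 in wild-type and 0.53 in null heart, an interaction of 0.86 ± 0.27 with 9 of 10 sites above 0. Tmtc3 (chr10:100443902-100487365), an enzyme that attaches mannose to cadherins, stood at 93.2, 65.0, 66.7 and 79.7%, an interaction of 0.81 ± 0.31 over 14 sites.

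Supt5, Cdk7, Nup155 and Nedd1 were also among the highest 12. Supt5 (chr7:28314891-28338804), a subunit of an elongation factor of RNA polymerase II, stood at 41.6, 31.0, 37.6 and 47.0%. Its interaction was 0.78 ± 0.20 over 16 sites, of which 11 were above 0. Cdk7 (chr13:100697024-100730942), the kinase of the general transcription factor TFIIH that also activates cell cycle kinases, stood at 79.6, 62.4, 69.2 and 88.8%, an interaction of 0.75 ± 0.18. In Supt5 and Cdk7, the infarcted sample was the lower of the pair in wild-type and the higher in null heart. Nup155 (chr15:8109263-8159859), a nuclear pore protein, stood at 57.4, 36.9, 43.5 and 45.7%, so its interaction of 0.74 ± 0.34 lay almost wholly in the wild-type pair. Nedd1 (chr10:92684745-92722418), which brings gamma-tubulin to the centrosome, was similar at 95.9, 61.1, 83.6 and 84.4%, with a null infarct difference of -0.01 and an interaction of 0.70 ± 0.22.

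The other genes of the highest 12 ran from 0.69 to 0.75. Asb13 (chr13:3633589-3653822), a substrate adaptor of an E3 ubiquitin ligase, differed mostly within the null pair, at 128, 118, 103 and 156%, an interaction of 0.74 ± 0.21. Phb (chr11:95666957-95680773), which encodes prohibitin of the mitochondrial inner membrane, stood at 109, 75.6, 98.6 and 107%, an interaction of 0.69 ± 0.22. Cyp2c55, a cytochrome P450, had an interaction of 0.75 ± 0.20. Fsip2, a protein of the sperm tail, and Blcap, whose locus holds the imprinted gene Nnat, had interactions of 0.70 ± 0.28 and 0.69 ± 0.18.

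Alg5 had the lowest interaction of all gene bodies. Alg5 (chr3:54735539-54749795) encodes the enzyme that makes the glucose donor of protein N-glycosylation, and stood at 48.8, 68.8, 68.2 and 46.5%. The non-infarcted sample was the lower of the pair in wild-type heart and the higher in null heart, with infarct differences of 0.44 and -0.57. The interaction was -1.01 ± 0.26 over 11 sites, of which 2 were above 0. Its value ran from -1.16 to -0.90 when any 1 site was left out.

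The next lowest, Fam76b, Siae and Nusap1, were highest in wild-type infarcted tissue. Fam76b (chr9:13827194-13854687) stood at 79.4, 126, 99.7 and 91.9%, an interaction of -0.75 ± 0.30. Siae (chr9:37613821-37648258), an esterase that removes acetyl groups from sialic acid, stood at 93.6, 127, 122 and 95.7%, an interaction of -0.75 ± 0.28. Nusap1 (chr2:119618298-119650165), a protein of the mitotic spindle, stood at 33.9, 45.4, 40.3 and 32.4%, an interaction of -0.70 ± 0.28. Ptdss1 encodes a phosphatidylserine synthase. Its body (chr13:66932830-66998401) stood at 32.1, 35.1, 52.6 and 35.7%, so the null non-infarcted sample was the high one and the interaction of -0.65 ± 0.23 lay in the null pair. Bora (chr14:99046377-99074540), an activator of mitotic kinases, was low only in the wild-type non-infarcted sample, at 30.7, 50.6, 50.6 and 52.3%, an interaction of -0.64 ± 0.25.

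Cul1 and Snx4 had the smallest SE among the 12 lowest named genes. Cul1 (chr6:47453732-47526144), the scaffold of SCF ubiquitin ligases, stood at 87.5, 125, 110 and 101%, an interaction of -0.60 ± 0.12 with 1 of 13 sites above 0. Snx4 (chr16:33251456-33299562), a sorting nexin of endosomal recycling, had the most sites of the named genes and stood at 65.7, 91.8, 81.6 and 72.1%, an interaction of -0.63 ± 0.17 over 21 sites. Crem (chr18:3266354-3337773), a transcription factor that responds to cyclic AMP, stood at 65.1, 105, 81.7 and 85.2%, an interaction of -0.60 ± 0.21. The interactions of Hexdc, a hexosaminidase, Fbxo33, a receptor subunit of SCF ligases, and Ttc5, a cofactor of p53, were -0.63 ± 0.24, -0.60 ± 0.26 and -0.61 ± 0.30.

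**Figure D2:**
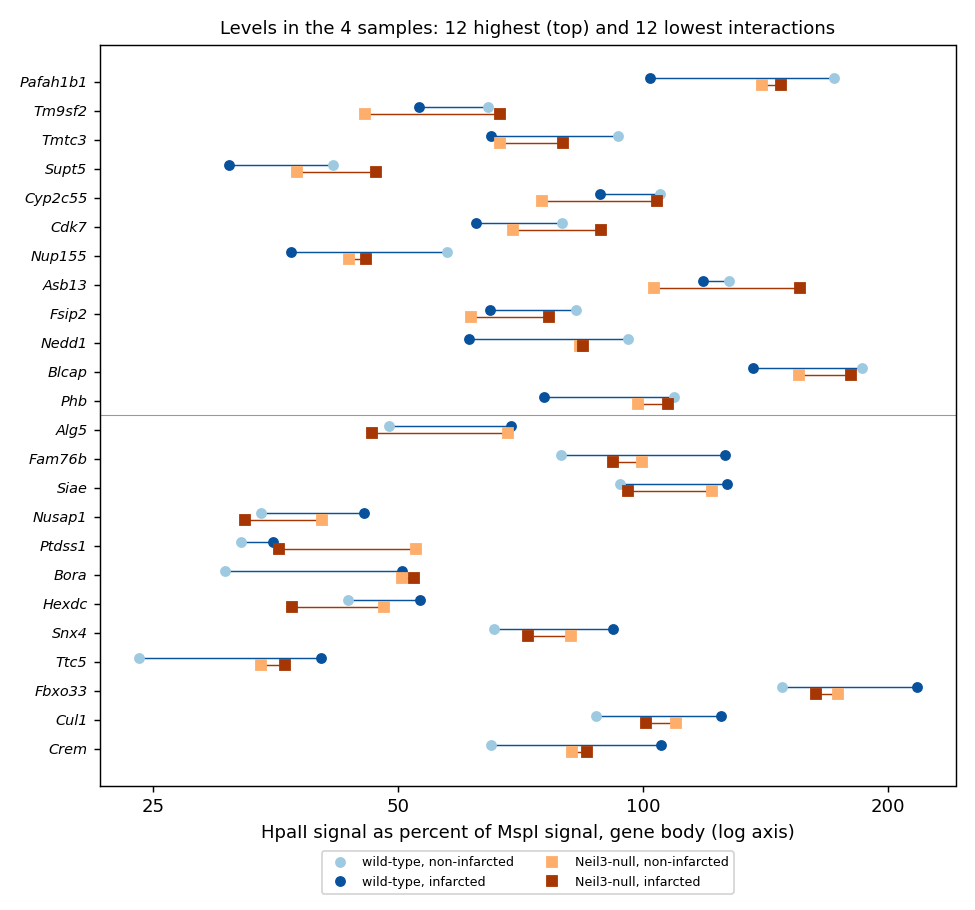
HpaII signal as a percent of MspI signal (x axis, log scale, not centred) in the 4 samples for the 12 highest and the 12 lowest named gene bodies. Circles are wild-type and squares Neil3-null samples, light for non-infarcted and dark for infarcted tissue, and a line joins each genotype's pair; in Alg5 the pairs run in opposite directions, from 48.8 to 68.8% and from 68.2 to 46.5%.

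The sites within these genes did not contribute equally. In Tm9sf2, the site at chr14:122135341 had HpaII signals of 13.4, 3.61, 4.28 and 22.3 against MspI signals of 30.9, 28.2, 31.8 and 33.7, a site interaction of 4.10. The difference there lay in HpaII signal, while MspI signal was nearly level. In Tmtc3, the site at chr10:100464457 had HpaII signals of 26.1, 6.85, 10.9 and 24.7 and a site interaction of 3.01. In Alg5, the site at chr3:54744006 had HpaII signals of 3.16, 13.4, 17.5 and 14.4 and a site interaction of -2.76, with the wild-type non-infarcted sample low. The lowest HpaII signal listed anywhere was 2.19, 3.16, 1.01 and 1.03 in the 4 samples, so the Tm9sf2 value of 3.61 in wild-type infarcted and the Alg5 value of 3.16 in wild-type non-infarcted tissue lie near it. With any 1 site left out, 21 of the 24 named genes stayed past 0.5 and all kept their direction, as the naming rule of at least 2 SE over sites favours.

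The ratio can move through either library, so each was also contrasted alone. HpaII signal alone had an interaction SD of 0.13 over gene bodies, with 14 at 0.5 or more (0.140%) and 24 at -0.5 or less (0.239%). MspI signal alone had an SD of 0.11, with 2 (0.0200%) and 2 (0.0200%). HpaII signal took the larger part of the interaction in 30 of the 41 genes with a positive and in 35 of the 46 with a negative interaction. Among the named genes the split varied. Nedd1 had 0.73 in HpaII signal and 0.03 in MspI signal, whereas Cul1 had -0.05 in HpaII signal and 0.55 in MspI signal. Fam76b likewise had -0.12 in HpaII and 0.63 in MspI signal, and Blcap 0.20 and -0.49. MspI is not blocked by the modification of the inner cytosine, so an interaction held by the MspI signal is a difference in the reference signal. What moved it was not tested.

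The called genes were those with few sites. Of the 87 called gene bodies, 72 had 10 to 14 sites, where 3.10% of 2321 genes were called and the SD of the interaction was 0.22. With 30 to 49 sites, none of 1742 genes was called and the SD was 0.12. With 50 or more sites, 1 of 2344 was called and the SD was 0.08. The median SE over sites went from 0.19 to 0.07 between the lowest and highest of these classes, so the spread of the interaction lay slightly above the spread between sites in each class. Over all gene bodies, 7.69% of interactions were larger than 2 SE over sites. With at least 20 sites required, 3 gene bodies were called on each side. When the level was instead the median over sites of the site ratios in each sample, 715 gene bodies were at 0.5 or more and 838 at -0.5 or less, and Pafah1b1 (-0.36), Cdk7 (-0.64) and Fam76b (0.30) had the opposite sign. Each sample's median can fall on a different site, so this value is not the median of the site interactions. Before centring, that median was 0.76 for Pafah1b1, 0.50 for Cdk7 and -0.97 for Fam76b, on the side of the call.

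**Figure D3:**
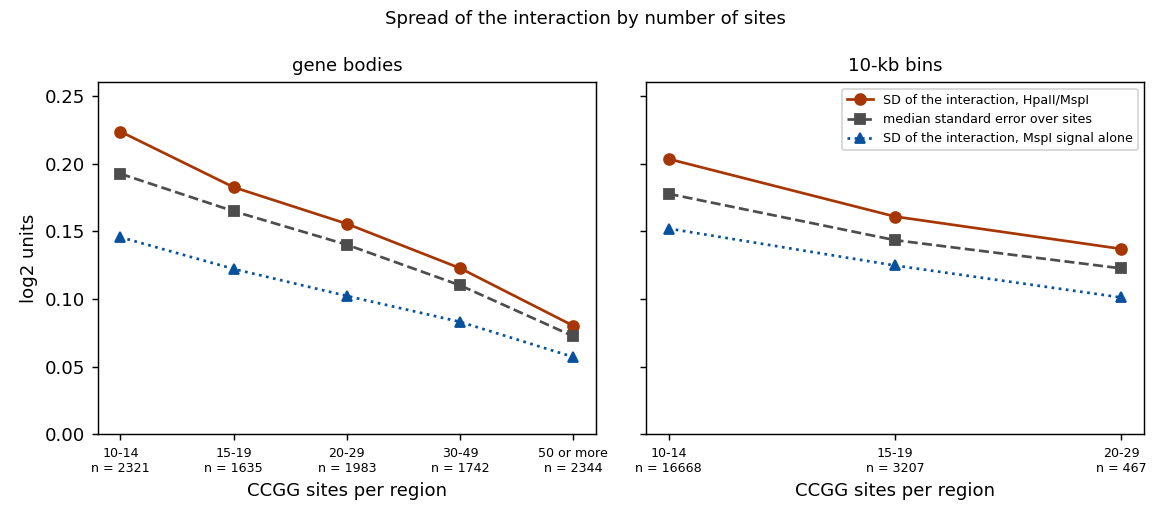
SD of the interaction over regions (red circles), the median SE over sites (grey squares) and the SD of the interaction of MspI signal alone (blue triangles), in log2 units, by number of CCGG sites per gene body (left) and per 10-kb bin (right). In gene bodies the SD of the interaction goes from 0.22 with 10 to 14 sites to 0.08 with 50 or more, close above the SE over sites; the class of 2 bins with 30 or more sites is not drawn.

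The 1 called gene with 50 or more sites was Tshz3, a zinc finger transcription factor, and it rested on a single site. Its body stood at 64.7, 47.7, 68.4 and 69.9%, an interaction of 0.51 ± 0.49 over 72 sites, which was -0.07 with the median over sites. At 1 of its sites, chr7:36708704, MspI signal was 49.0, 1600, 39.5 and 42.2, so the wild-type infarcted sample stood far above the others. The 10-kb bin around that site had an interaction of 2.23, the highest of all bins, and of 0.08 without the site. The SE of 1.14 kept this bin from being named. The bin in Phldb1 with the interaction of 1.45 was of the same kind, at -0.07 without the site chr9:44735942, where MspI signal was 12.8, 978, 24.7 and 21.6.

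Separate sets of sites of the same gene gave nearly unrelated interactions. When the sites of each gene body were taken alternately into an odd and an even set, the interactions of the sets had a Pearson correlation of 0.05 over 10025 genes. The wild-type infarct difference gave 0.16 by the same split, the null infarct difference 0.11, and the mean level over the samples 0.59. The sets share libraries and regional base composition, and these correlations are descriptions over genes that are not independent. Called genes had both sets on the side of the call in 40 of 41 and 45 of 46 cases, as selecting on their sum favours.

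In fixed 10-kb bins the interaction had an SD of 0.20. It was 0.5 or more in 130 of 20344 bins (0.639%) and -0.5 or less in 151 (0.742%). The values of neighbouring bins were nearly unrelated. The Pearson correlation between bins 10 kb apart was 0.03 (n = 8236 pairs), and between bins 1 Mb apart -0.01 (n = 4466 pairs). The medians of gene bodies by chromosome ran from -0.01 on chromosome 9 to 0.01 on chromosome 8.

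The bin with the highest interaction after those that rest on a single site lay in Ift172, a gene for a protein of intraflagellar transport. This bin (chr5:31270001-31280000) stood at 35.8, 28.9, 27.7 and 50.3%, so the null infarcted sample was the high one. Its interaction was 1.19 ± 0.36 with 8 of 10 sites above 0, and it lay in HpaII signal (1.20) and not in MspI signal (0.02). The bin in Mccc2 (chr13:100000001-100010000), of leucine breakdown, stood at 109, 82.4, 98.4 and 135%, an interaction of 0.88 ± 0.24. The bin in Acsf2 (chr11:94580001-94590000), an acyl-CoA synthetase, stood at 60.0, 47.8, 52.8 and 75.4%, an interaction of 0.86 ± 0.33. The bin in Ephb2 (chr4:136820001-136830000), a receptor for ephrin-B ligands, had the smallest SE of the named bins. It stood at 252, 181, 212 and 257%, an interaction of 0.78 ± 0.09 with all 10 sites above 0, made up of 0.27 in HpaII signal and -0.51 in MspI signal. The other named bins with a positive interaction overlapped Tulp2 and Nucb1, at 0.80 ± 0.28, and Cep250 with 6430550D23Rik, at 0.76 ± 0.19. Cep250 encodes a centrosomal protein.

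The lowest bin held no protein-coding gene. This bin (chr11:94220001-94230000) stood at 87.9, 173, 156 and 148%, so the wild-type non-infarcted sample was the low one, and its interaction was -1.03 ± 0.45. It lay mostly in MspI signal, at 0.76 against -0.27 in HpaII signal. The bin in Alg5 (chr3:54740001-54750000) overlaps the gene body given above and stood at 44.4, 63.9, 57.1 and 44.0%, an interaction of -0.88 ± 0.40. The bin in Kalrn (chr16:34010001-34020000), a guanine nucleotide exchange factor, stood at 23.4, 35.5, 35.0 and 28.9%, an interaction of -0.86 ± 0.22 with none of 11 sites above 0. The bin in Flvcr2 (chr12:85760001-85770000), a membrane transporter, stood at 76.3, 115, 103 and 86.8%, an interaction of -0.83 ± 0.38. In Kalrn and Flvcr2 the wild-type non-infarcted sample was the lowest. The wild-type infarcted sample was the highest in Flvcr2 and nearly level with the null non-infarcted sample in Kalrn. The bins in Fam234b and at chr11:58240001-58250000, which holds no protein-coding gene, had interactions of -0.82 ± 0.28 and -0.78 ± 0.15.

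**Figure D4:**
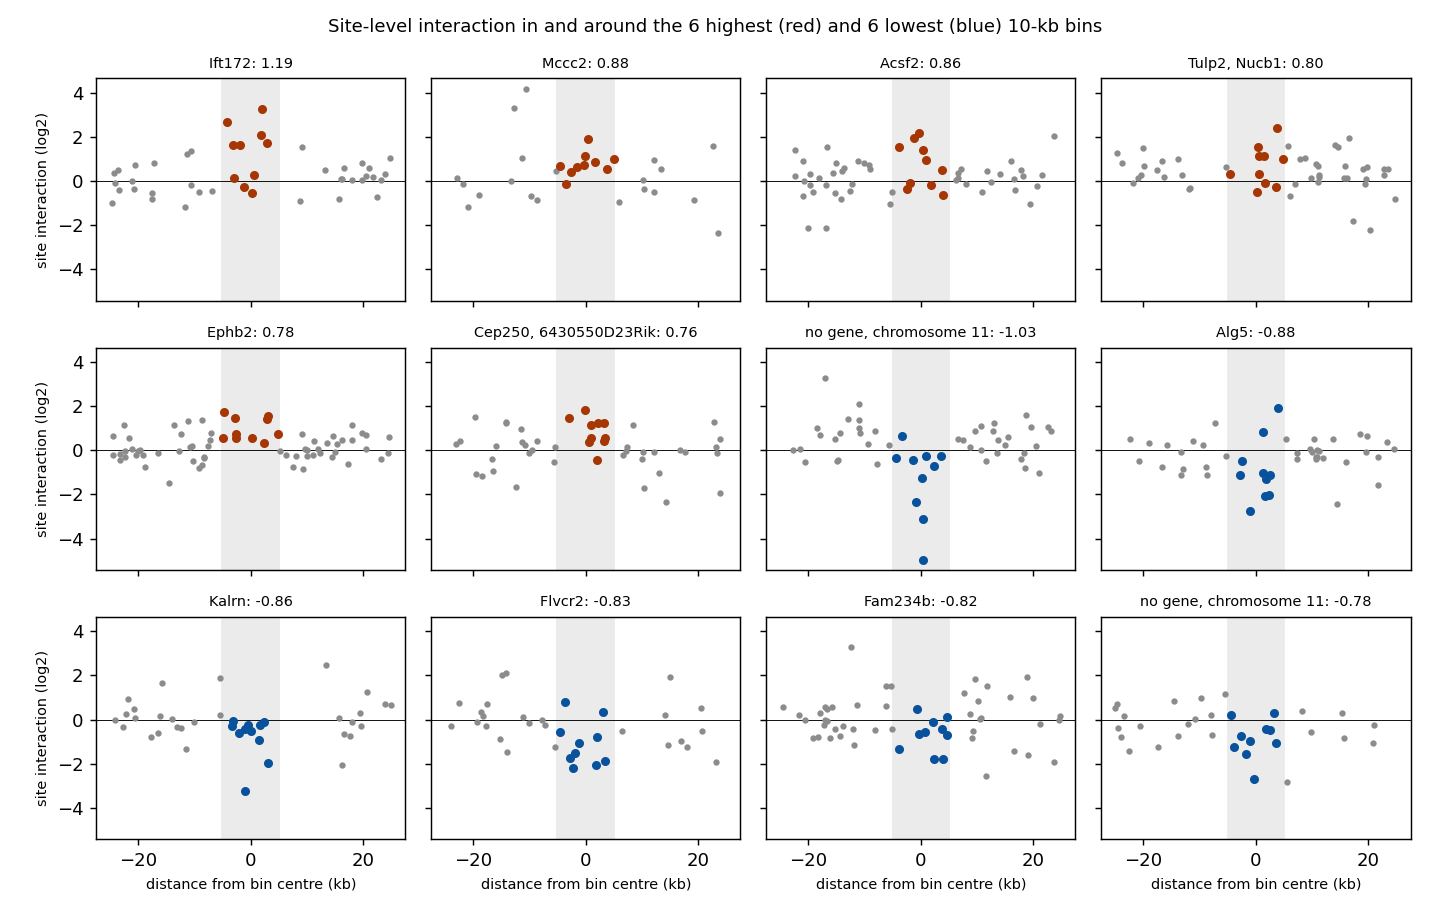
Interaction of single CCGG sites (y axis, log2) against distance from the bin centre (x axis, kb) in and around the 6 highest (red) and the 6 lowest (blue) named bins. The shaded band is the bin and grey points are sites outside it. In the Ephb2 panel all 10 sites of the bin lie above 0, while the sites on either side scatter around 0.

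At annotated gene starts (1 kb on either side, at least 5 sites, added after seeing the data) the spread was wider. The interaction had an SD of 0.24 over 3685 gene starts, with 78 at 0.5 or more (2.12%) and 65 at -0.5 or less (1.76%). Here the MspI signal carried the larger part, with an interaction SD of 0.22 against 0.13 for HpaII signal. The start of Brpf3, a scaffold of a histone acetyltransferase, stood at 535, 456, 368 and 619%, an interaction of 1.0 ± 0.21, of which HpaII signal gave 0.11 and MspI signal -0.91. The start of Ccar1, a transcription coactivator, stood at 569, 393, 314 and 385%, an interaction of 0.85 ± 0.17. The body of Ccar1 was called in the opposite direction, at -0.52 ± 0.12 over 17 sites. The start of Slc6a5 stood at 300, 429, 430 and 341%, an interaction of -0.83 ± 0.13, with 0.10 in HpaII and 0.91 in MspI signal. Starts of Chchd6, of a complex that shapes mitochondrial cristae, and of Uck2, a uridine-cytidine kinase, had interactions of 0.95 ± 0.25 and 0.89 ± 0.14. The starts of Parg, which removes poly(ADP-ribose), and Timm23, of mitochondrial protein import, share their 5 sites and had the same value, -0.82 ± 0.33. The start of Tbx1, a transcription factor of the cardiac outflow tract, stood at 120, 189, 133 and 123%, so the wild-type infarcted sample was the high one, and the interaction was -0.74 ± 0.35. For 2260 genes with both measures, body and start had a Pearson correlation of 0.08.

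Gene lists of heart cell types and repair had medians close to 0, beside a median of 0.00 over all gene bodies. Oxidative metabolism had the highest, 0.10, with 21 of 31 measured genes above 0, 2 at 0.5 or more and none at -0.5 or less. Of all gene bodies, 50.1% lay above 0, 0.409% at 0.5 or more and 0.459% at -0.5 or less. Suclg1, of the citric acid cycle, stood at 74.9, 56.8, 64.5 and 69.0%, an interaction of 0.53 ± 0.15, which was -0.10 with the median over sites in each sample. The median of its site interactions was 0.53 before centring, with 9 of 11 sites above 0. Ckmt2, the mitochondrial creatine kinase of muscle, stood at 87.3, 63.0, 86.4 and 87.6%, an interaction of 0.52 ± 0.18. In both genes the wild-type infarcted sample was the low one. The lowest member was Ogdh, also of the citric acid cycle, at -0.23 ± 0.16 and at 0.21 with the median over sites in each sample. The median of its site interactions was -0.08 before centring.

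Several genes of fatty acid oxidation and ATP synthesis had a negative infarct difference in both genotypes that was larger in wild-type heart. They were chosen after their values were seen. Atp5a1, a subunit of ATP synthase, stood at 63.4, 39.6, 70.6 and 60.1%, with infarct differences of -0.73 in wild-type and -0.25 in null heart. Acadm, a fatty acyl-CoA dehydrogenase, stood at 103, 69.4, 96.2 and 83.7%, with infarct differences of -0.63 and -0.22. Cpt1b, which admits fatty acids to muscle mitochondria, stood at 70.2, 48.0, 69.6 and 57.0%, with infarct differences of -0.60 and -0.31. Their interactions, 0.48 ± 0.28, 0.41 ± 0.16 and 0.30 ± 0.14, were not called. The list's median infarct difference was -0.19 in wild-type and -0.07 in null heart.

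Cardiomyocyte markers had infarct differences of similar size. Their median infarct difference was -0.19 in wild-type and -0.11 in null heart. Of 34 measured markers, 25 had an interaction above 0, with a median of 0.07. The 1 call was Ckmt2, which is in both lists, beside 0.409% of all gene bodies at 0.5 or more. The next highest was Gja1, the main gap junction protein of ventricle, at 280, 197, 273 and 246% and an interaction of 0.39 ± 0.13, which was -0.07 with the median over sites in each sample. The median of its site interactions was 0.61 before centring, with 10 of 11 sites above 0. The lowest marker was Tbx20, a cardiac transcription factor, at -0.27 ± 0.14. This value lay in MspI signal (0.27) and not in HpaII signal (0.00). The median of the Tbx20 site interactions was 0.10 before centring, with 13 of 23 sites above 0. At the 10 measured gene starts of cardiomyocyte markers the median interaction was -0.09, with 4 above 0. Leukocyte markers had the opposite infarct difference, with medians of 0.12 in wild-type and 0.08 in null heart. Their interaction had a median of 0.00 with 10 of 20 measured markers above 0 and no call, from Mrc1, a macrophage receptor, at -0.29 ± 0.11 to Csf3r, a granulocyte receptor, at 0.17 ± 0.13. Both lists thus had a smaller median infarct difference in null heart. The share of cardiomyocytes and leukocytes in each sample was not measured, and its part in the interaction was not tested.

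Base excision repair, the pathway of NEIL3, had a median of 0.09, with 16 of 19 measured genes above 0, 1 call at 0.5 or more and none at -0.5 or less, beside 50.1%, 0.409% and 0.459% of all gene bodies. Mutyh, the glycosylase that removes adenine opposite oxidized guanine, stood at 70.3, 57.4, 61.6 and 75.0%, an interaction of 0.61 ± 0.26. Parp1, which senses strand breaks, stood at 45.9, 41.6, 42.7 and 46.1%, an interaction of 0.28 ± 0.19. The median of the site interactions before centring was 0.56 for Mutyh and 0.00 for Parp1. Of their sites, 10 of 11 and 9 of 17 were above 0. Neil1 and Tdg, further glycosylases, had 0.18 ± 0.14 and 0.13 ± 0.25. Neil3 at -0.26 and Lig3, a DNA ligase, at -0.07 ± 0.23 were the lowest. For Lig3 the median of the site interactions was 0.29 before centring, with 12 of 19 sites above 0. At the 8 measured gene starts of this list the median interaction was 0.00, with 4 above 0. The enzymes that write and remove DNA methylation had a median of -0.01, with 12 of 24 measured genes above 0 and no call. They ran from D2hgdh, an enzyme that clears 2-hydroxyglutarate, at -0.31 ± 0.16 to Uhrf2, a reader of modified cytosine, at 0.29 ± 0.13, or -0.03 with the median over sites in each sample. For Uhrf2 the median of the site interactions was 0.25 before centring. The maintenance methyltransferase Dnmt1 had -0.09 ± 0.08, the de novo methyltransferase Dnmt3a -0.03 ± 0.06, and the oxygenases Tet1, Tet2 and Tet3 0.07 ± 0.09, 0.00 ± 0.12 and 0.09 ± 0.06. With the median over sites Dnmt1 stood at 0.14 and Tet1 at -0.16.

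Lists of repair tissue and inflammation stayed close to all genes. Extracellular matrix and remodelling genes had a median of 0.00 with 27 of 53 above 0 and no call. Its lowest members were the fibrillar collagen genes Col3a1, at 101, 133, 129 and 129% and an interaction of -0.37 ± 0.16, and Col1a2, at -0.34 ± 0.13. In Col3a1 the wild-type non-infarcted sample was the low one. Fibroblast markers had a median of -0.02 with 9 of 20 above 0 and no call. Proliferation genes had a median of -0.02 with 11 of 25 above 0 and a call on each side. Of all gene bodies, 0.409% were called at 0.5 or more and 0.459% at -0.5 or less. Ccnb2, cyclin B2, stood at 55.6, 55.7, 38.3 and 57.7%, an interaction of 0.62 ± 0.26 that lay in the null pair. Mcm6, of the replicative helicase, stood at 52.7, 67.1, 58.2 and 48.5%, an interaction of -0.58 ± 0.23. Inflammation genes had a median of -0.03 with 9 of 24 above 0 and 1 call, Relb, a subunit of NF-kB, at 105, 87.5, 91.6 and 107% and an interaction of 0.52 ± 0.18.

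**Figure D5:**
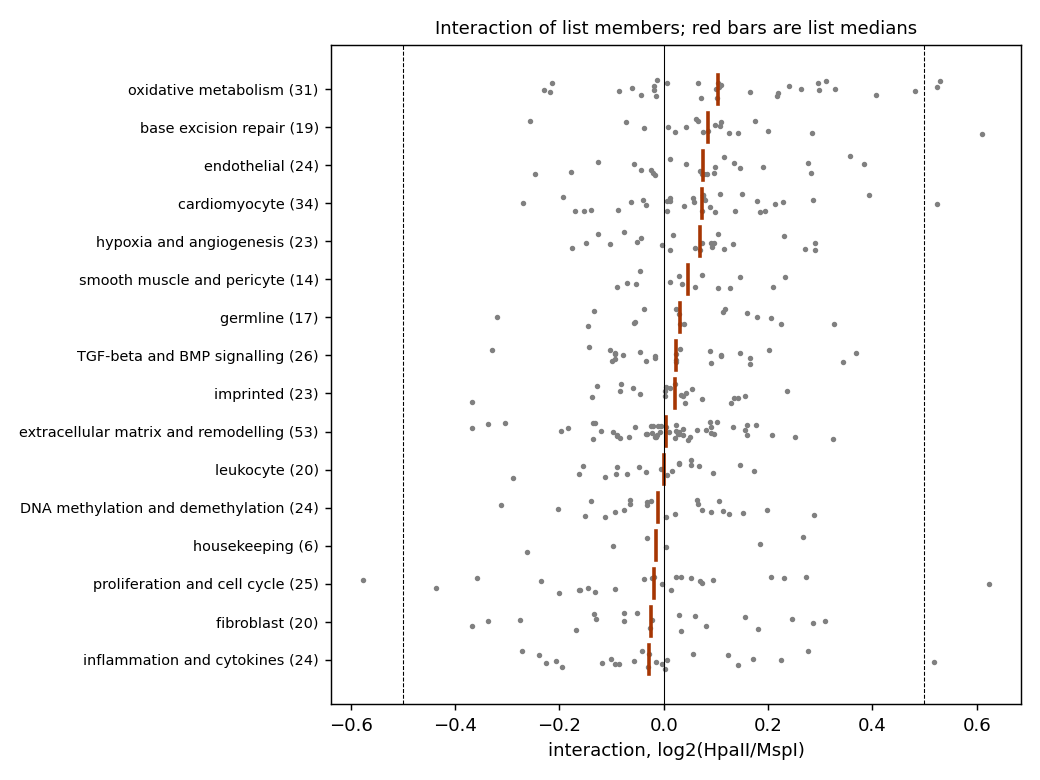
Interaction of the measured members of 16 gene lists (points, x axis in log2 units, number measured in brackets), with the list median as a red bar and the call size of 0.5 as dashed lines; points are spread vertically for legibility. Medians run from 0.10 for oxidative metabolism to -0.03 for inflammation, and all but 7 list entries lie inside the dashed lines.

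The remaining lists had no call. Their medians were 0.08 for endothelial markers, with 16 of 24 genes above 0, 0.07 for hypoxia and angiogenesis (15 of 23), 0.05 for smooth muscle and pericyte (10 of 14), 0.03 for germline (11 of 17), 0.02 for TGF-beta and BMP signalling (14 of 26), 0.02 for imprinted genes (16 of 23) and -0.01 for housekeeping genes (3 of 6). Among endothelial genes, the receptor gene Tie1 stood at 87.1, 66.6, 88.7 and 86.4%, so the wild-type infarcted sample was the low one, and its interaction was 0.38 ± 0.19. Notch4 was the lowest of that list at -0.25 ± 0.15. In TGF-beta signalling, the corepressor gene Skil and the receptor-activated Smad2 marked the ends at 0.37 ± 0.12 and -0.33 ± 0.23. Smad2 stood at 0.10 with the median over sites in each sample. The median of its site interactions was -0.63 before centring, with 7 of 23 sites above 0.

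With the glucosylated library (BGT, which leaves unmodified and methylated sites open to MspI), the values are secondary. In wild-type non-infarcted tissue its signal had a Pearson correlation of 0.53 with MspI signal over 967498 sites, against 0.70 to 0.73 in the other samples. The interaction of log2(BGT/MspI) had an SD of 0.20 over gene bodies, with 113 at 0.5 or more (1.13%) and 96 at -0.5 or less (0.958%). Of the 41 genes with a positive HpaII/MspI interaction, 29 had a BGT/MspI interaction above 0, and of the 46 with a negative one, 36 lay below 0. Both ratios share the MspI signal. With BGT in place of MspI as the denominator, Blcap (-0.04), Fam76b (0.24), Cul1 (0.14) and Tshz3 (-0.04) had the opposite sign. So had uncalled genes given above, namely Gja1 (-0.20), Ogdh (0.18), Lig3 (0.20), Neil3 (0.07), Tet1 (-0.05), Tie1 (-0.02) and Neil1 (-0.01). Alg5 had -1.01 for HpaII/MspI and 0.26 for BGT/MspI, while Blcap had 0.69 and 0.72 and Fam76b -0.75 and -0.99.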

How the data were processed

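For each of the 4 samples the authors deposited a normalized signal at every listed CCGG site in 3 libraries. Of the normalization method, aligner, filters and tag numbers nothing is given in the sources used here, so depth is unknown and no counting interval is given. Total signal over autosomal sites lay between 33764133 and 43428586 per library, and in each kind of library it was lowest in the wild-type infarcted sample. The build is mm10, per the submitters' processing notes; files count positions from 0, and they are given here from 1. Of 1070814 autosomal sites listed in any sample, 967498 (90.4%) were listed in all 4 and used. Genes came from a RefSeq table of GRCm38.p6, with no exons; a gene body leaves out 1 kb at each end of the gene. Where a gene had several annotated starts, the one with the most sites was used.

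The level of a region was log2 of summed HpaII over summed MspI signal, centred on the median region of each sample; before centring the medians of gene bodies were -0.16, -0.10, -0.10 and -0.08, and the interaction shifts by -0.04 without it. The SE over sites was obtained by linearisation. Named were the 12 highest and 12 lowest gene bodies and the 6 highest and 6 lowest bins past 0.5, with at least 2 SE and a median site interaction on the same side, leaving out predicted names; the 2 highest and 2 lowest members of lists described, of which the text gives a part; and Neil3. Gene starts were named by the same rule, 4 a side. The interaction, the lists (16 lists, 629 genes, 372 of them measured) and the rule for names were chosen with earlier results of these data known. Alternatives were the summary over sites, filters on signal, the number of sites, centring, a pseudocount, the region and the BGT denominator. The procedure was tested on simulated data. Python 3.11.15, numpy 2.4.6, pandas 2.3.3, scipy 1.17.1 and matplotlib 3.10.9 were used.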

Additional observations from a re-analysis of the deposited data

Results flagged for a closer look

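In each of the following regions, the infarct difference had opposite signs in wild-type and Neil3-null heart. With 1 sample per group the difference was not tested, and regions chosen for a large interaction favour such signs, so the values below are a list to return to and not a result. The interaction, in log2 units of HpaII/MspI, was positive in the gene bodies of Pafah1b1 (0.865), Tm9sf2 (0.864), Tmtc3 (0.811), Supt5 (0.782), Cyp2c55 (0.749), Cdk7 (0.746), Nup155 (0.743), Asb13 (0.736), Fsip2 (0.703), Blcap (0.688) and Phb (0.687). It was negative in Alg5 (-1.01), Fam76b (-0.750), Siae (-0.747), Nusap1 (-0.700), Ptdss1 (-0.654), Hexdc (-0.632), Snx4 (-0.626), Fbxo33 (-0.600) and Cul1 (-0.598).

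Among bins, the values were 1.19 in Ift172, 0.885 in Mccc2, 0.865 in Acsf2, 0.804 in Tulp2 and Nucb1, 0.777 in Ephb2 and 0.765 in Cep250. They were -1.03 and -0.779 in the 2 bins of chromosome 11 without a gene, -0.877 in Alg5, -0.860 in Kalrn, -0.826 in Flvcr2 and -0.816 in Fam234b. At gene starts they were 1.0 for Brpf3, 0.951 for Chchd6, 0.893 for Uck2, 0.854 for Ccar1, -0.827 for Slc6a5, -0.818 for Parg and Timm23 and -0.740 for Tbx1.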

How the results depend on the processing

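The counts of called regions depended on the processing. In this paragraph they are given as positive and negative calls in gene bodies, then in bins, against 41, 46, 130 and 151 as reported. With the median over sites of the site ratios in each sample they were 715, 838, 2233 and 2307, and 22 of the 41 and 28 of the 46 reported genes were among them. With a mean MspI signal of at least 20 per site they were 20, 18, 37 and 38, and with at least 10 the positive bins were 83. With 5 sites they were 192, 217, 2962 and 3234, and with 20 sites 3, 3, 0 and 0, where 469 bins were left. A pseudocount of 5 gave 18, 15, 48 and 69. Without centring the negative genes were 70, which follows from the shift of -0.04 in all genes, and the positive genes 29. Whole gene spans gave 32 positive and 23 negative genes, and 19 of the 41 and 13 of the 46 reported genes were among them. BGT in place of MspI gave 163, 181, 721 and 661. Added after seeing the data were a mean HpaII signal of at least 10, with 22 negative genes and 86 negative bins, and a size of 0.3, with 338, 390, 1178 and 1267. Leaving out 187 sites where 1 sample stood at least 10 times off the others, also added, gave 40, 46, 127 and 153. Where no construction is named, the cause was not tested.

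All 24 named genes kept their direction under every alternative that measured them, except the median over sites and BGT. Their size was less stable. With the whole annotated gene span, 13 of the 24 stayed past 0.5, and the smallest value in the direction of its call was 0.05. The median over sites reversed Pafah1b1 (-0.36), Cdk7 (-0.64), Fam76b (0.30) and, among other called genes printed, Suclg1 (-0.10) and Tshz3 (-0.068). BGT reversed Blcap (-0.036), Fam76b (0.24), Cul1 (0.14), Tshz3 (-0.042) and, among zinc finger genes, Zfp438 (0.10). Leaving out the sites 10 times off also reversed Tshz3 (-0.082). Uncalled genes of the text that turned under the median over sites or BGT are given with those values in the text. All 12 named bins kept theirs in every alternative with a value; shifted bins give none. A minimum of 20 sites left 1 of the named genes, and an MspI signal of 20 left 5. List medians moved under the median over sites for base excision repair (0.30), germline (0.21), inflammation (0.088), leukocyte (-0.086), oxidative metabolism (0.21) and proliferation (-0.18), and under BGT for TGF-beta (-0.088), endothelial (-0.089) and extracellular matrix (-0.050).

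No paired analysis was possible because each group has 1 sample, which also leaves no replicate to leave out. Tag numbers are unknown, exons were not analysed here, and infarct, genotype, animal and library preparation cannot be told apart within a sample.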

Other observations

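Gene families had medians within 0.04 of 0. Some of their members, such as Col3a1 and Col1a2, are also in the lists above. Of 269 solute carrier genes, 140 were above 0 and none was called, from Slc22a29 at -0.47 to Slc4a11 at 0.42 (-0.13 with BGT in place of MspI). Of 107 potassium, sodium and calcium channel genes, 53 were above 0 and none was called. Among 160 zinc finger genes, 70 were above 0, 1 was called at 0.5 or more and 4 at -0.5 or less, beside 0.409% and 0.459% of all gene bodies. Zfp78 stood at 92.8, 107, 122 and 93.4%, an interaction of -0.55 ± 0.18. The 35 clustered protocadherin genes, which share many of their sites, ran from -0.11 to 0.11. Cyp2c55 was the only call among 25 cytochrome P450 genes, and the 45 collagen genes had none.

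Genes with the lowest HpaII/MspI level had the widest spread of the interaction and held more of the calls, mainly the negative ones. When genes were split by mean level into 10 classes, the lowest had a median of 51.4%, and 10 genes had an interaction of 0.5 or more and 27 of -0.5 or less among its 1003. In the other classes the calls were between 0 and 8 on the positive and between 0 and 5 on the negative side. The interaction in the lowest class had a median of -0.02 and an SD of 0.23, against SDs of 0.13 to 0.18 in the others. Of all gene bodies, 0.409% were called at 0.5 or more and 0.459% at -0.5 or less.

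Single sites with a value at least 10 times above the other 3 samples were concentrated in 1 sample, and sites at least 10 times below the others lay mostly in the null samples. In wild-type non-infarcted tissue there were 92 such sites in the MspI library and 49 in the BGT library, against at most 2 in any MspI library and none in any BGT library of the other samples. Of sites at least 10 times below the others, the HpaII libraries held 0, 4, 32 and 27 and the MspI libraries 1, 1, 12 and 23, in the order of the samples. The BGT libraries held 3, 9, 0 and 16. The lowest HpaII signal listed was 2.19, 3.16, 1.01 and 1.03 in the samples. A wild-type HpaII value could thus be 10 times below the others only where these were higher. In MspI signal the lowest values were closer together, at 0.45, 0.41, 0.49 and 0.50. What set these counts was not tested.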
